A study of Mus musculus with 12 samples.

Results

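Chemokines are small secreted proteins that direct the movement of cells through G-protein coupled receptors, and 9 genes of this family are described here in the mouse cortex: Cxcl10, Ccl2, Ccl3, Ccl4, Ccl12, Cxcl12, Cxcl14, Cxcl16 and Cx3cl1. They are 9 of the 55357 genes in the deposited tables, matched by symbol, and each had a count in at least 1 library. The genes were chosen from results of these same libraries, so their differences between genotypes are described without a test. Differences between regions and genes outside the 9 were tested over all genes.

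Messenger RNA was sequenced from the cortex with the hippocampal formation of 6 mouse pups at postnatal day 5, each of which gave 1 rostral and 1 caudal library. The conditional knockout (cKO) pups T3, T6 and T80 were Nestin-EgfrF/F: a recombinase driven by Nestin, a gene of neural stem and progenitor cells, acts on floxed alleles of Egfr, the epidermal growth factor receptor. The control pups T4, T8 and T70 are given as EgfrF/+ in the protocol and as WT in the genotype label, with no word on whether they carry the recombinase. Loss of Egfr and presence of the recombinase can therefore not be told apart.

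Total counts ran from 43810458 to 87170315 per library. Egfr lay between 39.3 and 49.0 CPM (counts scaled to a common library size by TMM) in the 6 control libraries and between 5.73 and 14.7 CPM in the 6 cKO libraries. T4, T8 and T3 were female by their transcripts and the other 3 pups male. Rostral T6 stood apart from the other cKO libraries: mitochondrially encoded genes took 8.18% of its counts, against 1.85% to 3.98% elsewhere. Its astrocyte marker list summed to 860 CPM against 1659 to 2594 CPM. Rostral T3 stood apart in choroid plexus markers, which summed to 391 CPM. They summed to 2.60 and 6.47 CPM in rostral T6 and T80, to 4.66 to 5.61 CPM in control rostral and to 9.45 to 550 CPM in caudal libraries. The bearing of this on the rostral values and on the regions in cKO was not tested. The rostral and caudal libraries of an animal deviated from their group means in a correlated way in T4, T8, T70 and T80 (r of 0.449 to 0.618 across 16030 genes), but not in T3 (0.0229) or T6 (-0.0293). The libraries are bulk tissue, in which fewer cells of a type and less RNA per cell cannot be told apart.

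As background, Ccl2, Ccl12, Ccl3 and Ccl4 are inflammatory CC chemokines that microglia and macrophages make when stimulated, and Cxcl10 is induced by interferons and by NF-kB. Cxcl12 and Cx3cl1 are made constantly: Cxcl12 in the meninges and blood vessels guides Cajal-Retzius cells and interneurons through Cxcr4, and Cx3cl1 on neurons is read by Cx3cr1 on microglia. Cxcl16 is another membrane-bound ligand, and Cxcl14 is a CXC chemokine of epithelia and of some neurons whose receptor is less settled.

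The 9 genes lie on chromosomes 5, 6, 8, 11 and 13 in the build of the files, GRCm39. Cxcl10 (ENSMUSG00000034855.14) is at chr5:92494497-92496748 on the minus strand. On chromosome 11, Ccl2 (ENSMUSG00000035385.6, chr11:81926397-81928279) and Ccl12 (ENSMUSG00000035352.4, chr11:81992671-81994226) are both on the plus strand, 64392 bases apart. Ccl3 (ENSMUSG00000000982.6, chr11:83538670-83540181, minus strand) and Ccl4 (ENSMUSG00000018930.4, chr11:83553410-83555509, plus strand) lie 13229 bases apart. Cxcl16 (ENSMUSG00000018920.12, chr11:70344809-70350810, minus strand) is on the same chromosome. Cxcl12 (ENSMUSG00000061353.12) is at chr6:117145496-117158328 and Cx3cl1 (ENSMUSG00000031778.14) at chr8:95498637-95509055, both on the plus strand, and Cxcl14 (ENSMUSG00000021508.12) is at chr13:56436456-56444364 on the minus strand. Cxcl10 shares 133 exon bases with Art3 and Cxcl16 shares 552 with Zmynd15, each on the opposite strand. Reads from those bases may not be assigned to the right gene, since the strand setting of the counting is not given. The other 7 genes share no exon base with another gene.

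RefSeq promoters (assembly GRCm38.p6) matched 6 of the 9 genes. Those of the inflammatory ligands Cxcl10, Ccl12 and Ccl3 are shown because these transcripts were higher together in cKO rostral cortex, and each line gives the 250 bases before the start. Capitals mark matches, on either strand, to the kB consensus of NF-kB, to the interferon response element GAAANNGAAA, to the AP-1 site TGANTCA and to TATAAA.
Cxcl10, chr5:92348890-92349139, minus strand: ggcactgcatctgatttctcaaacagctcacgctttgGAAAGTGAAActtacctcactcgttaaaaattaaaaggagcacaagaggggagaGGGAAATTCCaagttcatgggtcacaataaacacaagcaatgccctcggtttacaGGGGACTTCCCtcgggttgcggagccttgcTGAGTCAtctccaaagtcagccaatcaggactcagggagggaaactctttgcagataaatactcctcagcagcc
Ccl12, chr11:82101595-82101844, plus strand: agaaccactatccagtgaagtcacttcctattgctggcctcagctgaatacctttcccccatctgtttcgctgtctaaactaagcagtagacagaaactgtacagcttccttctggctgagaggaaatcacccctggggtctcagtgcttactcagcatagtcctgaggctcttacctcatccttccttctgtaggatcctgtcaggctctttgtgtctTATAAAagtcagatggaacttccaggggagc
Ccl3, chr11:83649379-83649628, minus strand: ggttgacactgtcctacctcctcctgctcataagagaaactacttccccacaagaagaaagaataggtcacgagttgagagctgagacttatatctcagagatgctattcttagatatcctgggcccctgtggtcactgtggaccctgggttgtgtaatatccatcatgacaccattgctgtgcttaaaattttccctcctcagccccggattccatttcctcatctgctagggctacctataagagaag

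In the Cxcl10 window the interferon element starts at -213, kB matches start at -159, -104 and -103 (the last 2 overlap, and the one at -103 reads on both strands), and an AP-1 site starts at -74. The Ccl12 window holds TATAAA at -31, and the Ccl3 window holds none of the 4 motifs. Over the 300 bases that RefSeq gives for each of 27025 mouse promoters, the kB consensus matched in 8.18%, the interferon element in 3.49%, the AP-1 site in 7.93% and TATAAA in 14.2%. Among the other matched promoters, that of Cxcl14 holds an interferon element at -172, that of Cx3cl1 holds TATAAA at -6, and that of Cxcl12 holds no match. The promoters of Cxcl12, Cxcl14 and Cx3cl1, the genes of high level, held 20, 22 and 19 CpG pairs in 300 bases, and those of Cxcl10, Ccl3 and Ccl12 held 10, 3 and 2, where the median promoter held 7. These matches are letters in a window and show no binding.

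Levels of the 9 genes spanned a wide range, and 3 of them made nearly all of the chemokine counts. Cx3cl1, Cxcl12 and Cxcl14 together took 99.0% to 99.5% of the counts of the 9 genes in the control libraries and 96.0% to 98.6% in the cKO libraries. Divided by exon length, the mean level over the 12 libraries was 44.1 CPM per kilobase for Cx3cl1, 14.01 for Cxcl14 and 7.56 for Cxcl12. It was 0.992 for Ccl12, 0.989 for Ccl3, 0.521 for Ccl2, 0.460 for Cxcl16, 0.228 for Ccl4 and 0.0888 for Cxcl10. On that scale Cx3cl1 was above Cxcl14 in 12 of 12 libraries, Cxcl14 above Cxcl12 in 11, and Cxcl12 above Ccl12 in 12. The order among Ccl12, Ccl3, Ccl2 and Cxcl16 was within the spread of the libraries: each was above the next in 7, 8 and 7 of the 12.

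Cxcl10, the interferon-inducible ligand of Cxcr3, was close to absent in control cortex and present in each cKO library. The control rostral libraries held 0, 2 and 1 counts (T4, T8, T70) and the cKO rostral libraries 18, 50 and 36 (T3, T6, T80). In caudal cortex the counts were 3, 3 and 1 in control and 20, 13 and 11 in cKO. The lowest cKO library thus held 11 counts and the highest control library 3, and the genotypes did not overlap in either region. A library at 0 allows up to 3 counts, which is 0.0548 CPM in control rostral T4. Pooled over the libraries, 104 against 3 counts gave a ratio of 29.8 in rostral cortex (exact 95% interval 9.93 to 147), and 44 against 7 counts gave 7.22 in caudal cortex (3.23 to 19.0). These intervals cover counting error only. Art3, whose exons overlap the gene, had 131 to 149 counts in control rostral and 88 to 108 in cKO rostral libraries. In caudal cortex Art3 had 85 to 166 counts in control and 79 to 153 in cKO libraries, which overlapped.

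Ccl3 and Ccl4, neighbours on chromosome 11 and ligands of Ccr1, were also higher in cKO. Ccl4 was at 2, 0 and 0 counts in control rostral and 13, 37 and 22 in cKO rostral libraries, and at 4, 4 and 3 against 5, 23 and 11 counts in caudal cortex. The pooled ratio of Ccl4 was 31.0 in rostral cortex (exact 95% interval 8.27 to 261, from 2 control counts) and 4.07 in caudal cortex (2.05 to 8.82). Its genotypes did not overlap in either region, but the lowest cKO caudal library was only 1 count above the highest control. Each of the 2 control rostral libraries at 0 allows up to 3 counts, 0.0458 CPM in T8 and 0.0481 CPM in T70.

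Ccl3 had 22, 12 and 24 counts in control rostral and 53, 241 and 54 in cKO rostral libraries. In caudal cortex it had 35, 27 and 21 counts in control and 29, 71 and 33 in cKO. Scaled to depth, cKO ran from 0.715 to 3.31 CPM against 0.183 to 0.402 CPM in rostral cortex, and from 0.450 to 1.04 against 0.328 to 0.417 CPM in caudal cortex, without overlap. On the log2 scale Ccl3 was 2.32 higher (SE 0.69) in cKO rostral cortex. It was 1.27 (SE 0.37) without animal T6, whose rostral library held 241 of the 348 cKO rostral counts. In caudal cortex it was 0.89 (SE 0.34), and 0.48 without T6.

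Ccl2 and Ccl12, ligands of Ccr2 that recruit monocytes, differed more by library. Ccl12 had 13, 14 and 14 counts in control rostral and 26, 97 and 84 in cKO rostral libraries. Scaled to depth these were 0.214 to 0.238 CPM against 0.351, 1.33 and 1.29 CPM, so T3 was far below T6 and T80 but above the controls. In caudal cortex Ccl12 had 27, 20 and 24 counts in control and 13, 73 and 29 in cKO, and the levels overlapped, since T3 at 0.283 CPM lay below the lowest control (0.297 CPM). On the log2 scale the difference of Ccl12 was 2.13 (SE 0.53) in rostral and 0.85 (SE 0.47) in caudal cortex, and the caudal value was 0.07 without T6.

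Ccl2 had 26, 23 and 5 counts in control rostral and 45, 96 and 63 in cKO rostral libraries, or 0.0802 to 0.475 CPM against 0.607 to 1.32 CPM, without overlap. In caudal cortex it had 34, 48 and 41 counts in control and 7, 49 and 50 in cKO, which overlapped. For Ccl2 the log2 fold change was 1.68 (SE 0.59) in rostral cortex and -0.11 (SE 0.47) in caudal cortex, where it was 0.27 without T3. The difference of Ccl2 between genotypes was therefore seen in the rostral piece, and the difference between the pieces was not tested.

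Cxcl16, a membrane-bound ligand of Cxcr6, was at 1.02, 0.397 and 0.914 CPM in control rostral and 2.43, 0.962 and 3.14 CPM in cKO rostral libraries. T6 was within the control range, and the groups overlapped. In caudal cortex Cxcl16 was at 0.809, 1.03 and 1.20 CPM in control and 1.37, 1.15 and 2.24 CPM in cKO, which also overlapped. The log2 fold change was 1.50 (SE 0.53) in rostral and 0.67 (SE 0.28) in caudal cortex, and the caudal value was 0.33 without T80. The overlapping gene Zmynd15 had 23 to 40.5 counts in control and 25 to 55.5 in cKO libraries, where Cxcl16 had 26 to 77 and 63 to 205.

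**Figure D1:**
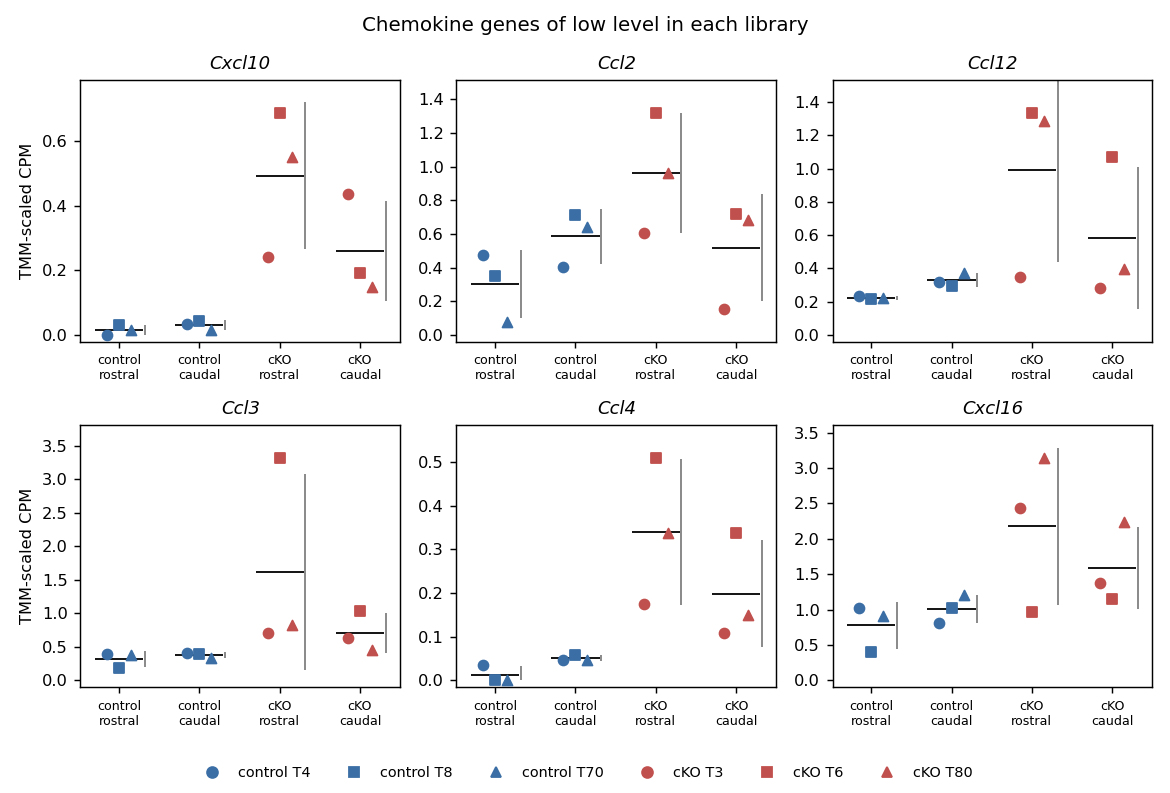
TMM-scaled CPM of Cxcl10, Ccl2, Ccl12, Ccl3, Ccl4 and Cxcl16 in each of the 12 libraries, by genotype and region. Points are libraries with 1 symbol per animal, the black line is the group mean and the grey bar the mean ± SD (n = 3, not drawn below 0). For Cxcl10 all cKO points lie above all control points, and for Ccl3 the rostral library of T6 (3.31 CPM) lies far above the rest.

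Cxcl12, the ligand of Cxcr4 and Ackr3, was at 53.6, 39.7 and 55.8 CPM in control rostral and 85.6, 20.7 and 82.4 CPM in cKO rostral libraries. In caudal cortex it was at 67.0, 56.4 and 68.1 CPM in control and 38.2, 82.2 and 91.6 CPM in cKO. The genotypes overlapped in both regions: in each, 1 cKO library lay below all controls (rostral T6, caudal T3) and the other 2 above them. The log2 fold change was 0.35 (SE 0.49) in rostral cortex, 0.77 (SE 0.15) without T6, 0.06 without T3 and 0.10 without T80. It was 0.15 (SE 0.31) in caudal cortex, 0.45 (SE 0.10) without T3 and -0.07 without T80.

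The summed meningeal fibroblast markers moved with Cxcl12 from library to library. The summed list of 10 markers, which does not hold Cxcl12, ran from 327 to 674 CPM in control and from 151 (rostral T6) to 906 CPM (caudal T80) in cKO libraries, and caudal T3 was at 248 CPM. Pdgfra alone ran from 124 to 211 CPM over the 12 libraries, so it made most of the sum in rostral T6. The markers did not move alike: Col1a1 ran from 4.03 to 162 CPM and Foxc1 from 5.80 to 21.0 CPM. Per 1000 counts of that list Cxcl12 had 99.3 to 121.5 counts in control and 101 to 154 in cKO libraries. Where the sum is low, this ratio rests mainly on Pdgfra, which varied far less than Col1a1. There the sum and the ratio are no measure of meningeal fibroblast content. The genes most like Cxcl12 over the 12 libraries, among 12937 genes, were Colec12 (Pearson r = 0.997), Tbx18 (0.994) and Igf2 (0.993). These are descriptions over libraries that come in pairs from 6 animals. The part of the meningeal content in the levels of Cxcl12 was not tested.

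Cx3cl1, the neuronal ligand of the microglial receptor Cx3cr1, was the most abundant of the 9 and varied least. It was at 195, 173 and 174 CPM in control rostral and 155, 162 and 152 CPM in cKO rostral libraries, without overlap. In caudal cortex it was at 211, 177 and 179 CPM in control and 148, 198 and 153 CPM in cKO, and T6 lay within the controls. The log2 fold change was -0.20 (SE 0.09) in rostral and -0.17 (SE 0.12) in caudal cortex. Beside it, the list of 8 neuronal markers summed to 5379 to 5848 CPM in control rostral and to 4434, 6318 and 4867 CPM in cKO rostral libraries (T3, T6, T80). Whether neuronal content took part in the difference was not tested. The genes most like Cx3cl1 were Pld3 (r = 0.913), Sorcs2 (0.906) and Pcdhgc5 (0.880).

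Cxcl14 was at 41.2, 21.0 and 28.4 CPM in control rostral and 24.7, 11.1 and 14.4 CPM in cKO rostral libraries. T3 lay within the controls, and T6 and T80 below them. In caudal cortex Cxcl14 was at 32.4, 26.2 and 29.5 CPM in control and 23.4, 28.9 and 25.9 CPM in cKO, which overlapped. Fitted log2 fold changes of Cxcl14 were -0.84 (SE 0.36) in rostral and -0.16 (SE 0.10) in caudal cortex, and the rostral value was -0.55 without T4. The genes most like Cxcl14 were Pik3r3 (r = 0.941), B3galt5 (0.938) and Nxph4 (0.919), and those most like Cxcl16 were Cmklr1 (0.954), Myo1f (0.918) and Fyb (0.915).

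**Figure D2:**
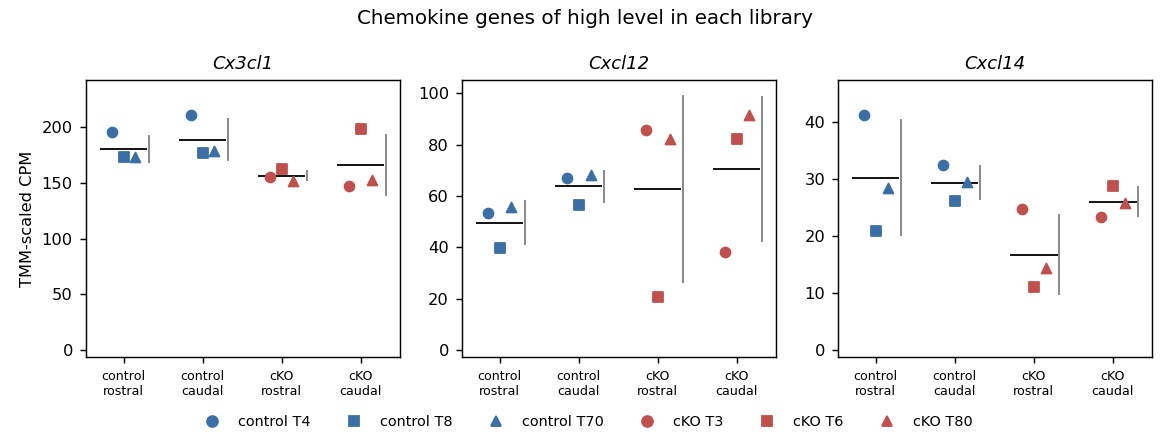
TMM-scaled CPM of Cx3cl1, Cxcl12 and Cxcl14 in each library, with the group mean (black line) and mean ± SD (grey bar, n = 3). Cx3cl1 keeps within 148 to 211 CPM, while Cxcl12 in cKO spreads from 20.7 to 91.6 CPM.

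In rostral cortex the log2 fold changes of Cxcl10, Ccl4, Ccl3, Ccl12, Ccl2 and Cxcl16 lay between 1.50 and 4.77, and those of Cxcl12, Cx3cl1 and Cxcl14 between -0.84 and 0.35. In caudal cortex the genes did not separate in this way: Ccl2 at -0.11 lay below Cxcl12 at 0.15. On the summed counts of each animal Cxcl10 was at 3.82 (SE 0.37), Ccl4 at 3.02 (SE 0.50), Ccl3 at 1.72 (SE 0.50), Ccl12 at 1.47 (SE 0.43), Cxcl16 at 1.10 (SE 0.34) and Ccl2 at 0.77 (SE 0.32). Without T6 the summed value was 0.89 (SE 0.22) for Ccl3 and 0.50 (SE 0.30) for Ccl2. The median over the 9 genes was 1.68 in rostral cortex, 0.41 over the 8 fitted genes in caudal cortex and 1.10 on summed counts. Over all genes it was 0.04, 0.00 and 0.02. Since the 9 genes were chosen from results of these libraries, nothing is read from the distance between these medians. Ccl4 did not pass the filter on low counts in caudal cortex.

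Every cKO library lay above every control library for 5 of the 9 genes in rostral cortex, where this held for 9.05% of all genes tested, and for 2 of the 8 fitted genes in caudal cortex, where it held for 10.4%. Every cKO library lay below for 1 gene in rostral (10.7% of all genes) and 0 in caudal cortex (12.6%). Since the genes were selected with such results in view, nothing is read from these counts.

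**Figure D3:**
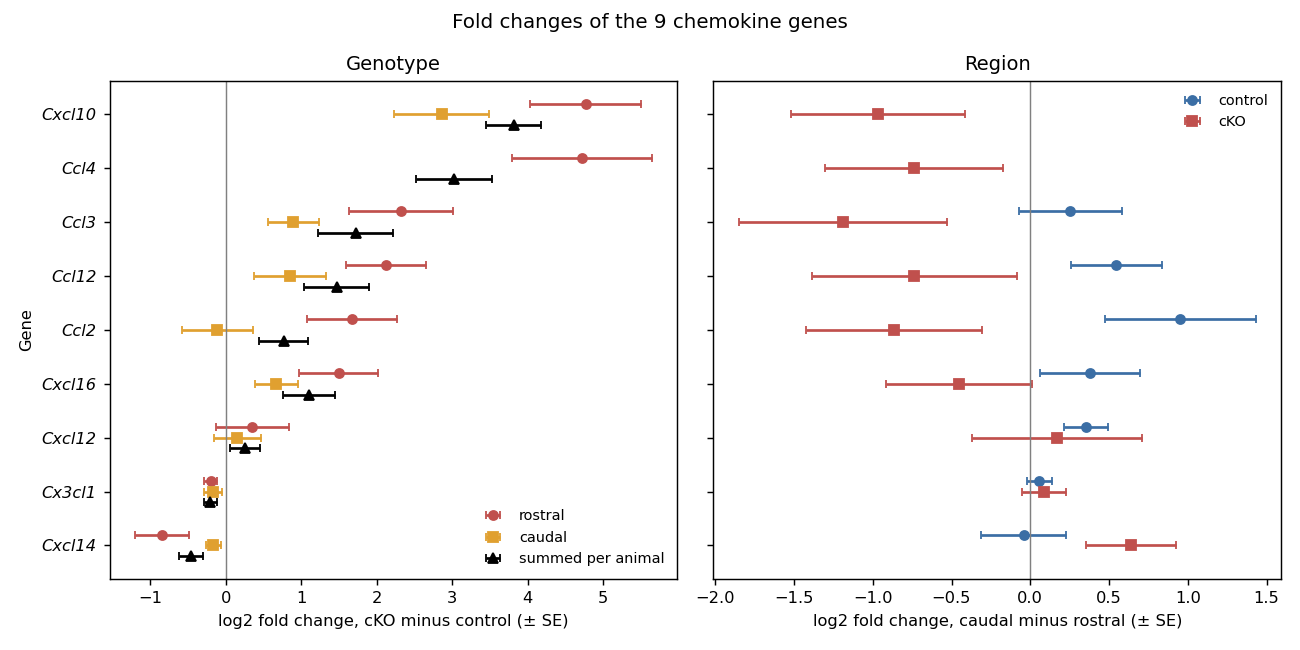
Log2 fold changes with standard errors (bars) of the 9 genes, for cKO minus control on the left (rostral, caudal, summed per animal) and for caudal minus rostral on the right (control, cKO). Missing points are genes under the filter on low counts. In the left panel Cxcl10 lies at 4.77 in rostral and 2.86 in caudal cortex, and Cx3cl1 stays near 0.

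The comparison of caudal with rostral cortex asks whether these genes differ along the axis of the cortex, and was tested within each genotype. In control cortex 7 of the 9 genes passed the filter (Cxcl10 and Ccl4 did not), and 0 of them passed the edgeR test with Benjamini-Hochberg adjustment, where 12.2% of all genes did. At an unadjusted p under 0.05 there was 1, Cxcl12, where 5269 of the 20461 genes tested were. DESeq2 also called Cxcl12, as it did 2833 genes in all. Cxcl12 was 0.36 higher in caudal cortex on the log2 scale (SE 0.14, edgeR adjusted p = 0.165, n = 3 per region), higher in 3 of 3 animals and without overlap between the regions. With the animal as a replicate block in the edgeR fit the value was 0.36 (SE 0.06, adjusted p = 0.00227). It passed there, in a fit that called 3144 genes. Without single animals and without the block the edgeR adjusted p of Cxcl12 was 0.0519 to 0.324. The meningeal fibroblast list was also higher in control caudal (548 to 674 CPM) than in control rostral libraries (327 to 521 CPM), and its part in the difference was not tested.

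The other fitted chemokines did not pass between the control regions. Ccl2 was at 0.95 (SE 0.48, edgeR adjusted p = 0.251), caudal minus rostral on the log2 scale, and Ccl12 at 0.55 (SE 0.29, edgeR adjusted p = 0.266). The log2 differences of Cxcl16, Ccl3, Cx3cl1 and Cxcl14 were 0.38, 0.25, 0.06 and -0.04. In cKO cortex 0 of the 9 genes passed the edgeR test (0% of all genes; 0 of the 9 at an unadjusted p under 0.05, and 0 by DESeq2). There the log2 differences of Cxcl10, Ccl3, Ccl2, Ccl4, Ccl12 and Cxcl16 lay between -1.19 and -0.45, toward higher rostral levels, with standard errors of 0.46 to 0.66. Cxcl14 was at 0.64 (SE 0.29) and Cx3cl1 at 0.09 (SE 0.14).

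Microglia and macrophages are among the known sources of Ccl3, Ccl4, Ccl2 and Ccl12 in the brain, and the list of 12 microglial markers was set beside them. It summed to 134 to 184 CPM in control libraries, to 251, 102 and 200 CPM in cKO rostral libraries (T3, T6, T80) and to 171 to 192 CPM in cKO caudal libraries. T6 rostral thus had the lowest microglial sum of all 12 libraries and the highest Ccl3, Ccl4, Ccl2, Ccl12 and Cxcl10 levels. Per 10000 counts of the list, Ccl3 had 13.7 to 26.6 counts in control libraries and 28.5, 324 and 41.4 in cKO rostral libraries. Cxcl16 had 29.7 to 70.5 counts in control and 97.1, 94.2 and 157 in cKO rostral libraries on the same base. Ccl4 had 0 to 3.94 counts in control and 6.99, 49.8 and 16.9 in cKO rostral libraries. Relative to microglial markers these 3 genes were above the control range in 3 of 3 cKO rostral libraries. In cKO caudal libraries Ccl4 was also above it (5.68, 19.4 and 8.80 counts), but Ccl3 in T80 (26.4) and Cxcl16 in T6 (65.8) lay within it. Ccl2 had 4.48 to 47.3 counts in control and 24.2, 129 and 48.3 in cKO rostral libraries, and Ccl12 had 12.5 to 22.0 and 13.98, 130.5 and 64.4. For Ccl2 and Ccl12 the library of T3 thus lay within the control range, and that of T80 was barely above it for Ccl2.

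Markers of other cell types that could carry these transcripts were also summed. Border macrophage markers ran from 29.9 to 87.7 CPM in control and from 13.2 (rostral T6) to 134 CPM (rostral T3) in cKO libraries. The 9 lymphocyte markers summed to 0.137 to 1.68 CPM over all libraries. The 7 neutrophil markers summed to 0.338 to 0.601 CPM in 11 libraries and to 2.94 CPM in cKO rostral T80. Endothelial markers ran from 254 to 306 CPM in control and from 184 to 323 CPM in cKO libraries. In none of the lists was a marker at 0 in all libraries. Whether these cells took part in the chemokine levels was not tested.

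**Figure D4:**
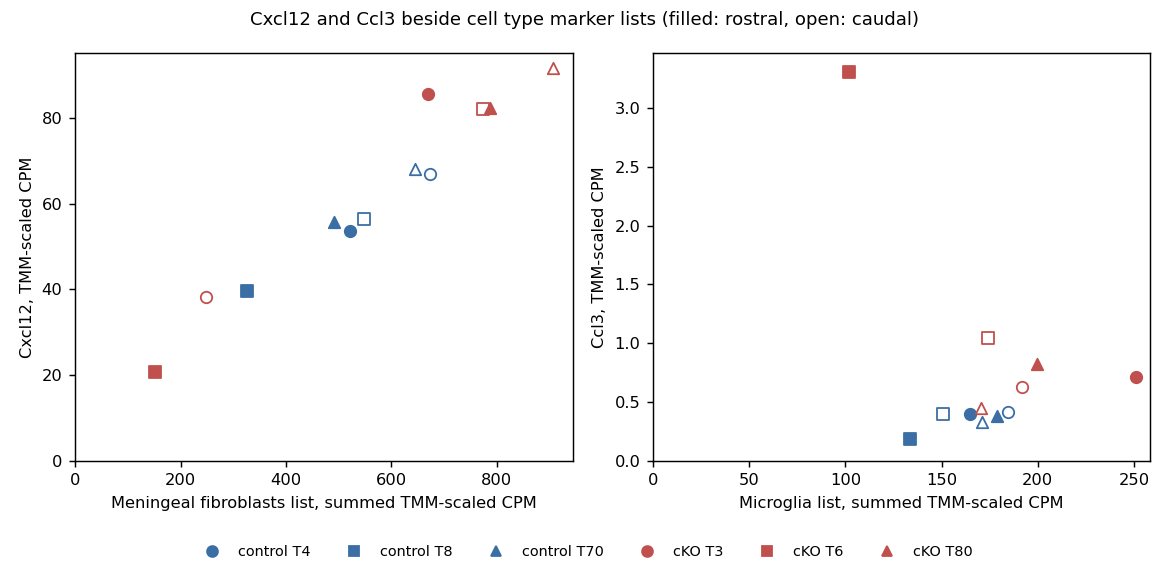
Left, Cxcl12 against the summed meningeal fibroblast markers. Right, Ccl3 against the summed microglial markers, both in TMM-scaled CPM with 1 point per library (filled rostral, open caudal, 1 symbol per animal). Cxcl12 rises with the summed meningeal list, from 20.7 CPM in rostral T6 to 91.6 CPM in caudal T80. At the low end that sum is mostly Pdgfra and is no measure of meningeal fibroblast content. The highest Ccl3 (3.31 CPM) lies at the lowest microglial sum (102 CPM).

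Of the receptors that read these ligands, Cx3cr1 was at 23.3 to 31.4 CPM in control libraries. In cKO it was at 51.0, 17.1 and 45.8 CPM in rostral (T3, T6, T80) and 33.4 to 35.2 CPM in caudal libraries. Its log2 fold change in rostral cortex was 0.53 (SE 0.38, edgeR with Benjamini-Hochberg adjusted p = 0.610). In caudal cortex it was 0.30 (SE 0.09, edgeR adjusted p = 0.252), and neither passed. Without T6 it passed in rostral cortex, in a fit that called 1058 genes. T6 was again the low library, as in the microglial list.

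Cxcr4, the signalling receptor of Cxcl12, was at 7.93 to 10.1 CPM in control rostral and 12.3 to 16.1 CPM in control caudal libraries, against 10.9 to 19.7 and 17.7 to 23.6 CPM in cKO. The genotypes did not overlap in either region, but the edgeR test did not pass. The rostral log2 fold change was 0.61 (SE 0.25, edgeR adjusted p = 0.518) and the caudal one 0.51 (SE 0.14, edgeR adjusted p = 0.209). DESeq2 called the caudal difference, among 517 genes that it called there. Ackr3, the scavenging receptor of Cxcl12, was at 4.93 to 6.12 CPM in control rostral and 3.41 to 7.45 CPM in cKO rostral libraries (log2 fold change 0.01, SE 0.29, edgeR adjusted p = 0.994). Its caudal levels were 7.80 to 8.14 CPM in control and 4.60 to 6.31 CPM in cKO libraries (log2 fold change -0.47, SE 0.13, edgeR adjusted p = 0.223).

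Ccr1, a receptor of Ccl3, was at 0.672 to 1.49 CPM in control and 0.536 to 3.41 CPM in cKO libraries. Ccr2, the receptor of Ccl2 and Ccl12 on monocytes, had 2 to 12 counts in control libraries. In cKO it had 32, 36 and 276 counts in rostral and 13.5, 11 and 29.5 counts in caudal libraries. Its highest library, rostral T80, was also the one with the highest neutrophil sum. Ccr2 was at 4.65 (SE 1.18, edgeR adjusted p = 0.368) in rostral cortex on the log2 scale and did not pass, though DESeq2 called it among 394 genes. Without T80 it was 2.76 (SE 0.57). Ccr2 passed the filter on low counts in rostral cortex only through the cKO libraries, and did not pass it between the control regions. Cxcr3, the receptor of Cxcl10, was at 0 to 0.108 CPM, and Cxcr6, the receptor of Cxcl16, at 0 to 0.0546 CPM, over all libraries. The decoy receptors Ackr1 and Ackr2 were at 50.5 to 78.7 and 1.61 to 3.79 CPM in control libraries, but Ackr1 shares 361 of its 1405 exon bases with Cadm3.

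**Figure D5:**
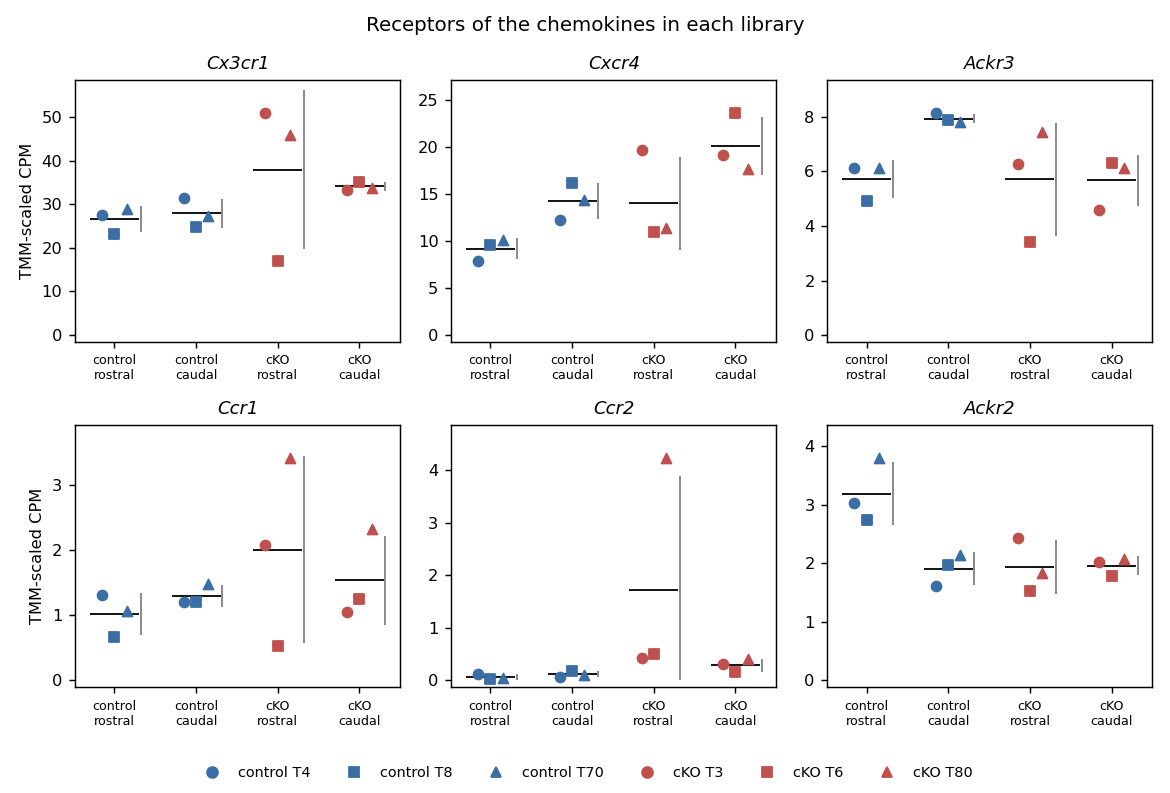
TMM-scaled CPM of the receptors Cx3cr1, Cxcr4, Ackr3, Ccr1, Ccr2 and Ackr2 in each library, with the group mean (black line) and mean ± SD (grey bar, n = 3, not drawn below 0). Ccr2 is close to 0 in control and reaches 4.22 CPM in cKO rostral T80, and Cx3cr1 in cKO rostral cortex spreads from 17.1 to 51.0 CPM.

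The list of the other chemokine ligands and that of the receptors were tested with the same fits. At an unadjusted p under 0.05 for genotype were 1955 of 20599 genes in rostral cortex and 3004 of 20705 in caudal cortex. On summed counts 3528 of 22924 genes were. DESeq2 called 394, 517 and 803 genes in the same order. In the genotype comparisons 0 of 12 ligands and 0 of 12 receptors passed edgeR in rostral cortex (0% of all genes; 2 and 5 at an unadjusted p under 0.05, 1 and 2 by DESeq2). In caudal cortex 0 of 12 and 0 of 12 passed (0.0821% of all genes; 1 and 5 unadjusted, 0 and 1 by DESeq2). On summed counts 0 of 15 and 0 of 13 passed (0.179% of all genes; 4 and 4 unadjusted, 1 and 3 by DESeq2). The ligand with the smallest p in rostral cortex was Ccl11, which draws eosinophils, with 1, 0 and 0 counts in control and 12, 55 and 12 in cKO rostral libraries. Ccl11 passed the filter on low counts there only through the cKO libraries, so nothing is read from its rank. It did not pass the filter in caudal cortex or between the control regions. On summed counts the ligand with the smallest p was Cxcl2, which draws neutrophils, at 2.02 (SE 0.39, edgeR adjusted p = 0.117). Without T6, 8 of the 27 other ligands and receptors tested passed in rostral cortex. They were Ccl27a, Pf4, Ackr4, Cx3cr1, Ccr9, Ccr1, Ccl7 and Ccl11. Over all genes 1058 passed in that fit.

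Between the control regions 3 of 11 other ligands and 6 of 11 receptors passed edgeR, where 12.2% of all genes did. Pf4, platelet factor made by platelets and border macrophages, rose caudally by 1.74 on the log2 scale (SE 0.28, edgeR adjusted p = 0.00294), and Ccl24 by 1.65 (SE 0.33, adjusted p = 0.00866). Ccl27a fell by 0.44 (SE 0.07, edgeR adjusted p = 0.00304). Among the receptors Cxcr4 (0.62), Ackr3 (0.47), Ccr9 (1.44) and Ackr4 (1.49) were higher and Ackr1 (-0.50) and Ackr2 (-0.75) lower in caudal cortex, with edgeR adjusted p from 0.000546 to 0.0433. Leaving out single control animals, 4 of these 9 calls held each time: Cxcr4, Ackr1, Ccl27a and Pf4. Without T4 only those 4 passed and without T8 those and Ackr2. Ackr4 shares 479 exon bases with Acad11, Ccl27a shares 8 with Il11ra1, and Ccr9 shares 1932 with Gm17021 and 22 with Slc6a20a, all on the opposite strand. Ccr9 also shares 269 exon bases with Gm17200 on the same strand, and Ackr1 overlaps Cadm3 on the same strand, so these counts are uncertain. Border macrophage markers were at 55.4 to 87.7 CPM in control caudal and 29.9 to 58.8 CPM in control rostral libraries, and their part in Pf4 and Ccl24 was not tested. Between the cKO regions 0 of 12 and 0 of 12 passed edgeR (1 and 1 unadjusted, 0 and 0 by DESeq2). Over all genes 0% passed and 348 of 20944 were under 0.05 unadjusted there.

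Genes upstream of inflammatory chemokines were listed as NF-kB and cytokine genes, and genes induced beside Cxcl10 as interferon response genes. In rostral cortex 0 of 11 and 0 of 12 passed edgeR for genotype (6 and 3 unadjusted, 3 and 1 by DESeq2), with medians of 0.59 and 0.90 on the log2 scale where that of all genes was 0.04. In caudal cortex 0 of 10 and 0 of 12 passed (1 and 2 unadjusted, 1 and 0 by DESeq2), with medians of 0.19 and 0.16. Over all genes 1955 of 20599 were under 0.05 unadjusted in rostral and 3004 of 20705 in caudal cortex. DESeq2 called 394 and 517 genes there. The lists were chosen with earlier results of these data known, so nothing is read from the distance of these medians to that of all genes. Il1a, which encodes interleukin 1 alpha, was at 0.128 to 0.192 CPM in control rostral and 0.505 to 1.01 CPM in cKO rostral libraries. Its log2 fold change on summed counts was 1.96 (SE 0.31, edgeR adjusted p = 0.0720), the lowest of the 5 lists in the genotype comparisons. Tnf had 2, 5 and 2 counts in control and 13, 18 and 30 in cKO rostral libraries, and passed the filter on low counts there only through the latter. Irf9, part of the factor that binds interferon elements, was at 8.02 to 8.92 CPM in control rostral and 9.77 to 12.5 CPM in cKO rostral libraries (0.45, SE 0.14, edgeR adjusted p = 0.418). Of the interferon genes themselves only a pair was looked at: Ifng had 0 to 1 and Ifnb1 0 to 2 counts in every library.

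Of the 6 proteases that cut or shed chemokines 0 passed edgeR for genotype in either region (2 unadjusted in each). DESeq2 called 0 of them in rostral and 1 in caudal cortex, Ctss. Over all genes 1955 of 20599 and 3004 of 20705 were under 0.05 unadjusted in these regions, and DESeq2 called 394 and 517. Dpp4, which trims the ends of Cxcl10 and Cxcl12, was at 5.99 to 7.91 CPM in control rostral and 4.71 to 5.09 CPM in cKO rostral libraries (-0.54, SE 0.16, edgeR adjusted p = 0.410). Ctss, cathepsin S, which cleaves Cx3cl1, was at 7.93 to 12.6 and 10.3 to 34.3 CPM there (1.25, SE 0.44, edgeR adjusted p = 0.471). Between the control regions 0 of 6 proteases (0 unadjusted, 0 by DESeq2), 0 of 9 NF-kB and cytokine genes (2 unadjusted, 0 by DESeq2) and 1 of 12 interferon response genes passed edgeR. Over all genes 12.2% passed there, and 5269 of 20461 were under 0.05 unadjusted. The 1 was Ifit3, which rose caudally by 1.16 (SE 0.28, edgeR adjusted p = 0.0209).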

How the data were processed

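The submitters' processing notes name STAR 2.7.8a, featureCounts 2.0.3 and the build GRCm39. Not given in the sources used here: annotation release, strand setting, handling of shared reads. The files deposited by the authors hold expected counts (9.69% to 14.3% of the values of a library are fractional), 1 file per library. Whole counts had been planned for. The values were rounded for the tests, and printed counts are as deposited.

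The 9 genes, the gene lists and the tests were chosen with earlier results of these data known. Each comparison was fitted on its own 6 libraries (or on the summed counts of 6 animals) with edgeR 4.0.16 in R 4.3.3: filterByExpr, TMM, robust quasi-likelihood F test, Benjamini-Hochberg adjustment over all genes and a threshold of 0.05. The tests were tested on simulated data. CPM were scaled by TMM over all 12 libraries, and per kilobase values use the exon length in the files. Named genes are the 9, their receptors (1 is not reported here), genes of the lists past the threshold or, where none passed, the 2 with the smallest p, and the 3 genes most like each gene with a mean of 1 CPM or more (Pearson r of log2(CPM + 0.5)). Others named were chosen after their values were seen: genes that share exon bases with a named gene (such as Art3 and Zmynd15), Ccl7, Ifng, Ifnb1, Ccl28 and Il1b.

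A shared T number in the labels was taken to mark the 2 libraries of 1 animal, with correlations of deviations of 0.449 (T4), 0.463 (T8), 0.558 (T70), 0.0229 (T3), -0.0293 (T6) and 0.618 (T80). Replicates are animals, and p-values for genotype measure the spread between these 3 per genotype. The region tests without the block took the 2 libraries of an animal as independent and leave the pairing out. Sex was called from Xist alone: female above 10 CPM, otherwise male. Alternatives were DESeq2 1.42.0, RLE scaling, no filter, each animal left out, sex as a covariate (genotype) and the animal as a replicate block (region).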

Additional observations from a re-analysis of the deposited data

Results flagged for a closer look

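For Ccl4 and Ccl12 the observed levels differed between the regions in opposite directions in the 2 genotypes. Caudal minus rostral CPM of Ccl4 was above 0 in each control animal (mean 0.0392) and below 0 in each cKO animal (mean -0.141), and that of Ccl12 was 0.106 and -0.406 in the same way. Ccl11 showed the same pattern, at 0.0358 and -0.208. For Ccl6 each cKO rostral library lay above the control rostral mean (mean difference 0.936 CPM) and each cKO caudal library below the control caudal mean (-0.186 CPM). Its genotypes overlapped in both regions. Ccl6 was at 0.962 to 1.89 CPM in control rostral and 1.62 to 3.55 CPM in cKO rostral libraries. In caudal cortex it was at 1.25 to 1.705 CPM in control and 1.02 to 1.43 CPM in cKO. Art3, which overlaps Cxcl10, was opposite in both views in the same sense: caudal minus rostral was -0.724 CPM in control and 0.548 CPM in cKO, and cKO minus control was -0.944 CPM in rostral and 0.328 CPM in caudal cortex. None of these differences passed edgeR within its own comparison. For Ccl12 the adjusted p was 0.266 between the control regions. Ccl4 and Ccl11 were under the filter on low counts there. Whether the differences themselves differ between the groups was not tested. Ccl4 and Ccl11 had at most 8 counts in any control library.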

How the results depend on the processing

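With 3 animals per genotype the counts of calls moved with tool, filter and animal. For genotype in rostral cortex (0 genes with edgeR) DESeq2 called 394, edgeR without the filter 45, and edgeR with single animals left out 0 to 1058 (1058 without T6, 7 without T3). Other chemokine ligands and receptors called were 3 by DESeq2 and 0 to 8 with single animals left out. In caudal cortex (17 genes) the counts were 517 by DESeq2, 326 without the filter, 2 with sex as a covariate and 0 to 162 without single animals, with 1 other ligand or receptor by DESeq2 and 1 without the filter. On summed counts (41 genes) they were 803, 320, 1 and 1 to 685, with 4 other ligands or receptors by DESeq2, 2 without the filter and 0 to 1 without single animals (1 without T6). Between control regions (2492 genes) leaving out single animals gave 1079 (T8) to 1690 (T4) genes, 1487 without T70, and 4 to 7 other ligands and receptors (9 with all). Of the chemokines 0 passed there, against 1 by DESeq2, 2 without the filter (Cxcl12 and Ccl2) and 1 with the replicate block. Over all genes these settings called 2833, 3514 and 3144. The block changed no other call among the chemokines and the other ligands and receptors. Between cKO regions DESeq2 called 4 genes. Under the 10 alternatives to the genotype fits, the log2 fold changes in caudal cortex ran from -0.58 to 0.27 for Ccl2 and from -0.15 to 0.45 for Cxcl12. Low counts limit Cxcl10 and Ccl4 most.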

Other observations

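Other inflammatory transcripts that are read beside the chemokines were low in control and uneven among cKO libraries. Il1b, which encodes interleukin 1 beta, had 3, 0 and 5 counts in control rostral and 15, 25 and 76 counts in cKO rostral libraries (T3, T6, T80), and 9, 10 and 1 against 4, 12 and 12 counts in caudal cortex. Tnf had 3, 4 and 1 counts in control caudal and 5, 4 and 6 in cKO caudal libraries. T80 rostral held the most Il1b, Tnf and Ccr2, while T6 rostral held the most Ccl3, Ccl4 and Ccl11.

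Ccl28, a mucosal chemokine, differed widely between animals, in the rostral and the caudal library alike. Its counts (rostral, caudal) were 336 and 524.5 in T4, 347 and 362 in T8 and 15 and 14 in T70 among the controls. In cKO they were 31 and 12 in T3, 563 and 311.5 in T6 and 136 and 170.5 in T80. Both genotypes held animals at either end of this range.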
